A study of Mus musculus with 11 samples.

Results

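Early thymic precursors (ETP) were compared with lymphoid-primed multipotent progenitors (LMPP) of C57BL/6J mice, across every gene that could be named on the array. The comparison used 2 ETP arrays and 2 LMPP arrays, 4 of the 11 in the series, and covered 19938 genes. LMPP were purified from bone marrow and ETP from thymus, and the labels name no treatment and no genetic change for either group. The other arrays held hematopoietic stem cells (HSC) and common lymphoid progenitors (CLP) of bone marrow, and thymocytes of the next stages, double negative 2 (DN2) and 3 (DN3). These 4 populations supply reference levels, and those with 2 arrays also supply part of the estimate of the spread. DN2 is a single array, so its levels carry no spread. Since the ETP came from thymus and the LMPP from marrow, the population and the tissue of origin cannot be told apart. No label states the sort gates or whether replicates came from separate animals, so p-values measure the spread between these arrays, which may be technical.

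LMPP are marrow progenitors that keep lymphoid and myeloid potential and have largely lost the potential to make red cells and platelets. Progenitors of this kind reach the thymus through the blood, and ETP are the earliest precursors there. Notch1 on their surface meets ligand on thymic epithelium, and Notch targets such as Hes1, together with Tcf7 and Gata3, begin the T cell programme. Genes of the T cell receptor complex and of receptor gene rearrangement rise mainly at the later DN2 and DN3 stages, while ETP can still give rise to myeloid, dendritic and natural killer (NK) cells.

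A level is the deposited log2 intensity of a gene's probe set, and a difference is the mean ETP level minus the mean LMPP level. A gene was called when limma's moderated test gave a Benjamini-Hochberg adjusted p under 0.05 over all 19938 genes. In ETP 287 genes were higher (1.44%) and 173 were lower (0.868%), together 460 genes (2.31%), beside 2675 genes at an unadjusted p under 0.05. These shares over all genes are the reference for every count of called list members below. A list with a single call is not read as a difference of the list. The ETP and LMPP arrays did not overlap for any of the 460, but this was also so for 18.4% of all genes with ETP higher and 24.9% with ETP lower. The smallest difference called was 0.48, and the median standard error (SE) of a difference was 0.14. Each array mattered: the number called was 258 and 262 when LMPP replicate 1 or 2 was left out, and 284 and 228 when ETP replicate 1 or 2 was left out. Of the 460, 151 were called without each of the 4 arrays in turn (95 higher and 56 lower). Signal near the array's background can compress a difference, and 2 arrays a group leave its size loose, so folds of genes at low levels are uncertain. Levels of different genes were not compared, since each probe set has its own response.

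The medians of the 11 arrays ran from 6.01 to 6.12. Across all genes the ETP arrays correlated with each other at r = 0.994 and the LMPP arrays at r = 0.991, against 0.982 to 0.985 between ETP and LMPP; genes are not independent replicates. Markers of the labelled populations were checked one by one. In LMPP the level of Flt3, a cytokine receptor that marks this population, was 10.48 and 10.75. Slamf1, a stem cell surface marker, stood at 4.01 and 4.41 in LMPP against 7.67 and 7.42 in HSC. Ebf1, a B lineage regulator, stood at 5.43 and 4.74 in LMPP and 4.44 and 4.26 in ETP, against 9.32 and 9.22 in CLP. In ETP the level of Kit, the receptor for stem cell factor, was 9.5 and 9.23, and in LMPP it was 9.13 and 9.33 (difference 0.14, adjusted p = 0.862). Thy1, Hes1 and Gata3, further markers of ETP, were called higher than in LMPP and Notch1 was not called, as given below. Il2ra, a marker expected low in ETP, was 6.96 and 7.68 there against 4.07 and 4.45 in LMPP and 11.40 in DN2. It was thus raised 8.33-fold over LMPP. Kit, Flt3, Il7r, Il2ra and Cd44 commonly serve to sort such cells, so their levels may follow the gates. Some levels did not follow the labels: the stem cell factor Hlf was 8.55 and 9.34 in LMPP against 8.91 and 8.32 in HSC, and Emcn, a stem cell sialomucin, 7.31 and 7.94 against 7.78 and 7.68. The HSC arrays, used here as reference levels, read high for genes of committed cells, with the granulocyte enzyme Elane at 8.32 and 8.89 and the red cell enzyme Car1 at 11.17 and 10.63, against 5.13 and 5.26 and 5.41 and 5.11 in LMPP. Tcf7 was not analysed here.

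Among genes higher in ETP, Cpa3, the mast cell carboxypeptidase, had the largest difference of the genes named here. Its level was 9.76 and 10.22 in ETP against 5.08 and 4.92 in LMPP (difference 4.99, SE 0.24, 31.8-fold, adjusted p = 3.48e-06). It was also high in HSC, at 9.94 and 10.28, and in DN2, at 11.06. Scin, an actin-severing protein, followed with 8.33 and 8.94 in ETP against 4.93 and 4.82 in LMPP (difference 3.76, 13.6-fold, adjusted p = 3.2e-05). Fasl, the ligand that triggers Fas-mediated death, reached 7.94 and 8.03 in ETP against 4.26 and 4.31 in LMPP (difference 3.70, SE 0.15, 13-fold, adjusted p = 1.69e-06). For all 3 genes both ETP arrays lay more than 3 log2 units above both LMPP arrays.

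Among genes lower in ETP, Wfdc17, a small secreted protein of the whey acidic protein family, fell most of the genes named here: its level was 4.95 and 5.30 in ETP against 10.49 and 10.07 in LMPP (difference -5.16, SE 0.17, 35.7-fold, adjusted p = 3.8e-07). In HSC it stood at 5.94 and 5.99 and in CLP at 8.15 and 8.04. Gcnt2, an enzyme that branches glycans, fell from 9.35 and 9.69 to 6.74 and 6.73 (difference -2.79, 6.91-fold, adjusted p = 1.56e-05). Mpeg1, the pore-forming protein perforin-2, fell from 8.86 and 8.73 to 6.06 and 6.04 (difference -2.75, 6.72-fold, adjusted p = 3.36e-06), and its level in CLP was 10.39 and 10.50. These genes were high in both LMPP arrays and low in both ETP arrays.

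**Figure D1:**
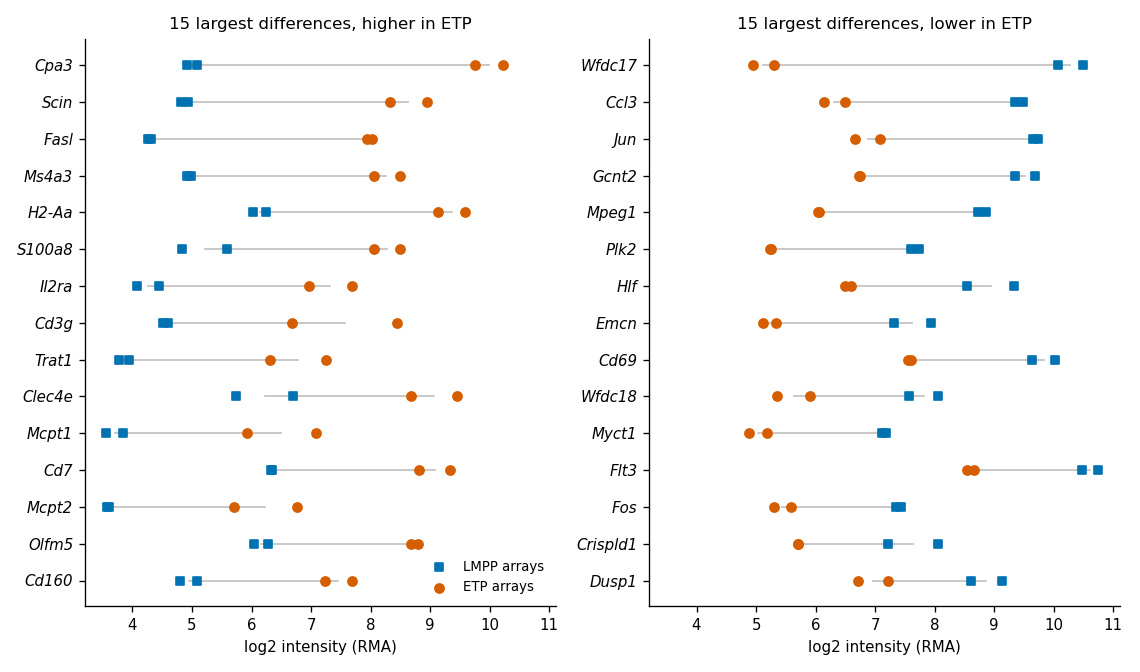
Levels (log2 intensity, horizontal axis) of the 15 genes with the largest positive and the 15 with the largest negative difference among genes called, leaving out predicted, antigen receptor, histone, small RNA and olfactory genes, with a dot for each of the 2 ETP and 2 LMPP arrays. The ETP dots lie wholly on one side of the LMPP dots in every row, which was a condition of the choice and held for all 460 genes called. Cpa3 and Wfdc17 lead the 2 panels with differences of 4.99 and -5.16.

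The Notch pathway differed at a few target genes rather than across its list. Of 35 measured receptors, ligands, cofactors and targets, 2 were called higher and 1 lower, and the list's median difference was -0.07 against -0.03 over all genes. Hes1, the repressor that Notch switches on in thymocytes, had a level of 8.19 and 8.27 in ETP against 6.16 and 5.96 in LMPP (difference 2.17, SE 0.12, 4.49-fold, adjusted p = 1.41e-05). Both ETP arrays lay near the DN2 level of 8.24 and the DN3 levels of 8.44 and 8.36, and Hes1 was also higher in ETP than in CLP (adjusted p = 4.57e-05), a comparison that shares the ETP arrays and called 2.52% of genes. Nrarp, a Notch-induced inhibitor of the pathway, was 1.58-fold higher (adjusted p = 0.011), and Dtx4, an E3 ligase of the Deltex family, 1.85-fold lower (adjusted p = 0.00473). The call of Nrarp was lost without LMPP replicate 2, ETP replicate 1 or ETP replicate 2 (adjusted p = 0.0879, 0.0766 and 0.0726), and that of Dtx4 without ETP replicate 2 (adjusted p = 0.0527). Notch1 itself measured 7.67 and 7.45 in ETP against 7.02 and 7.21 in LMPP (difference 0.45, adjusted p = 0.331), and Dtx1 differed by 0.01 (adjusted p = 0.992). The letters TGGGAA, the core of the site read by the Notch cofactor RBPJ, stood on either strand in the promoter windows of 10 of 28 list genes (35.7%), against 28.3% of all 27025 genes with a window. Nrarp, the 1 called member with a window, did not hold them, and no window of Hes1 was analysed here. A window runs from 250 bases before to 50 bases after a gene's start, from RefSeq on GRCm38.p6.

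Few transcription factors of the T lineage passed the test: of 25 measured, 3 were called higher and 1 lower (median difference 0.03). Tox, a regulator of T cell development, rose from 7.66 and 7.67 in LMPP to 9.40 and 9.38 in ETP (difference 1.73, SE 0.19, 3.31-fold, adjusted p = 0.00096). Gata3, which T cell specification requires, had a level of 7.22 and 6.67 in ETP against 5.68 and 5.57 in LMPP (difference 1.32, 2.50-fold, adjusted p = 0.00888). The ETP arrays differed from each other more than the LMPP arrays did, and the call of Gata3 was lost without LMPP replicate 1, LMPP replicate 2 or ETP replicate 1 (adjusted p = 0.0513, 0.0688 and 0.0766). Nfatc3, which responds to calcium signals, was 0.65 higher (adjusted p = 0.0302), and its call was lost without any of the 4 arrays (adjusted p = 0.0697 to 0.227). Nfil3, a factor that innate lymphoid and NK cells need, fell from 7.58 and 7.66 to 6.67 and 6.62 (difference -0.97, 1.96-fold, adjusted p = 0.00405). Bcl11b, which marks T commitment, measured 6.16 and 6.13 in ETP against 6.38 and 6.05 in LMPP (adjusted p = 0.91), and Lef1 differed by 0.07 (adjusted p = 0.891). Without an array, 1 to 2 list members were called higher in place of 3.

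The T cell receptor complex and its signalling adaptors were higher in part. Of 22 measured genes 6 were called higher and none lower, with 18 differences above 0 (81.8%, against 43.3% of all genes) and a median of 0.24. Cd3g, a signalling chain of the receptor complex, had levels of 6.68 and 8.45 in ETP against 4.60 and 4.51 in LMPP (difference 3.02, SE 0.40, 8.08-fold, adjusted p = 0.00292). The 2 ETP arrays lay far apart: the difference was 3.90 with ETP replicate 2 alone and 2.13 with ETP replicate 1 alone. In DN2 the level was 11.21 and in DN3 12.43 and 12.38. Trat1, an adaptor that stabilises the receptor, was 6.31 and 7.25 in ETP against 3.78 and 3.94 in LMPP (difference 2.92, 7.56-fold, adjusted p = 0.000323). Other adaptors moved by less than Cd3g and Trat1. Lcp2 (SLP-76) rose 2.76-fold (adjusted p = 0.000902), Grap2 (GADS) 2.99-fold (adjusted p = 0.0007) and Lat, the membrane scaffold, 1.86-fold (adjusted p = 0.00405). Cd3d, the next chain of the complex, was 5.51 and 6.80 in ETP against 4.82 and 4.71 in LMPP (difference 1.39, adjusted p = 0.0442), and its call was lost without LMPP replicate 1 (adjusted p = 0.158), LMPP replicate 2 (0.168) or ETP replicate 2 (0.0554). Cd3e differed by 0.12 (adjusted p = 0.81) and Cd247, the zeta chain, by 0.05; neither was called.

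Of 25 measured T cell surface receptors 5 were higher and 1 was lower (median difference 0.28). Thy1, the classical thymocyte antigen, rose from 7.56 and 7.73 in LMPP to 9.21 and 9.14 in ETP (difference 1.53, 2.89-fold, adjusted p = 0.00017). Il2ra, the interleukin-2 receptor alpha chain whose appearance marks DN2, was 6.96 and 7.68 in ETP against 4.07 and 4.45 in LMPP (difference 3.06, SE 0.21, 8.33-fold, adjusted p = 3.79e-05). Its ETP level stayed below DN2, at 11.40, and DN3, at 11.30 and 11.23. Cd7, an early marker of T and NK progenitors, was 8.81 and 9.33 in ETP against 6.32 and 6.34 in LMPP (difference 2.74, 6.70-fold, adjusted p = 3.27e-05). In DN2 it stood at 7.42 and in DN3 at 6.34 and 6.09, below both ETP arrays. Cd160, a receptor of cytotoxic lymphocytes, was 5.71-fold higher (adjusted p = 3.2e-05). Cd69, an early activation antigen, went the other way, from 10.02 and 9.64 to 7.55 and 7.60 (difference -2.25, 4.77-fold, adjusted p = 0.00384). Ly6d was 0.85 higher (adjusted p = 0.0355), with the call lost without LMPP replicate 1 (adjusted p = 0.186), LMPP replicate 2 (0.114) or ETP replicate 2 (0.267).

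Markers of later thymocytes were checked beside these genes. Of 14 measured, 2 were called higher (Trat1 and Cd3d), and the mean level of the list was 6.23 and 6.43 in the ETP arrays, 5.98 and 5.97 in the LMPP arrays and 8.28 and 8.27 in DN3. Cd4 and Cd8a, which mark thymocytes past the double negative stages, were not called: Cd4 was 5.55 and 5.66 in ETP against 6.16 and 5.68 in LMPP (adjusted p = 0.44), and Cd8a 5.61 and 5.68 against 5.59 and 5.68 (adjusted p = 0.991). ETP replicate 2 read higher than ETP replicate 1 for Cd3g, Cd3d, Trat1, Il2ra and Gzma, which were far higher in DN2 and DN3 than in LMPP. This was not so for every such gene: Gata3, with 7.82 in DN2, read 7.22 in replicate 1 and 6.67 in replicate 2, and Thy1, with 11.23 in DN2, read 9.21 and 9.14. Mcpt1, which was low in DN2 at 3.82, also read higher in replicate 2, at 7.08 against 5.92. The part of later cells in these differences was not tested. In sorted bulk samples, fewer cells of a type and less RNA per cell cannot be told apart.

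Of 15 measured genes of receptor gene recombination 1, Xrcc6 (Ku70), was higher, by 0.60 (adjusted p = 0.0495), and it lost its call without LMPP replicate 1, ETP replicate 1 or ETP replicate 2 (adjusted p = 0.28, 0.095 and 0.311). Rag1, the recombinase, was 6.85 and 7.25 in ETP against 7.35 and 7.43 in LMPP (difference -0.34, adjusted p = 0.409), far below DN3 at 11.45 and 11.63. Dntt, the polymerase that adds bases at receptor gene joints, was 11.66 and 11.88 against 12.00 and 11.98 (adjusted p = 0.599). The ETP and LMPP levels of Dntt lay close together, and both stood well above HSC at 8.32 and 7.88.

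**Figure D2:**
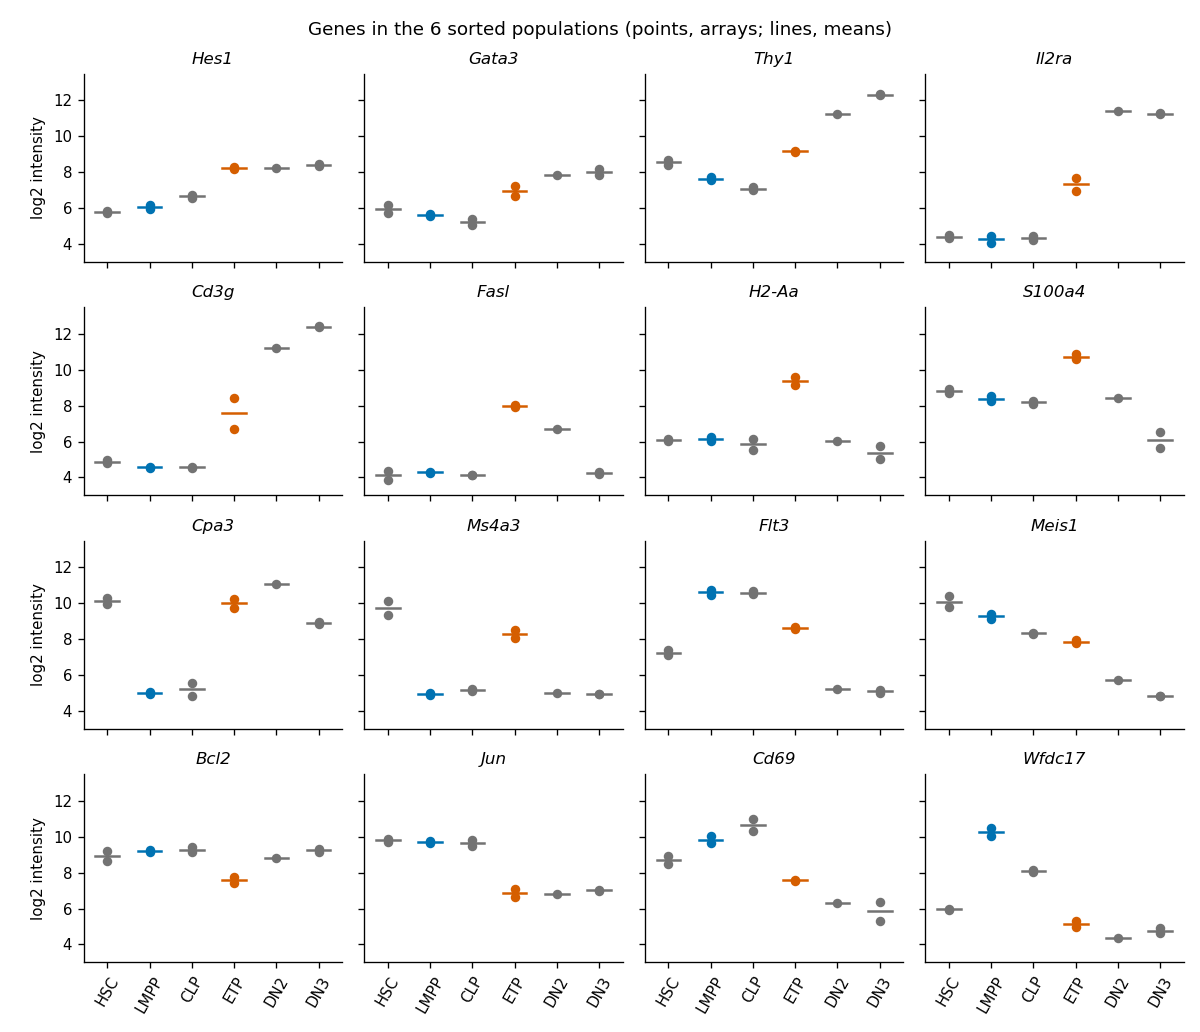
Levels (log2 intensity, vertical axes) of 16 genes across the 6 populations in the order HSC, LMPP, CLP, ETP, DN2, DN3 (horizontal axes), with a dot for each array. Hes1 stands at 8.19 and 8.27 in ETP and stays near there in DN2 and DN3, Il2ra and Cd3g continue upward after ETP, Fasl, H2-Aa and Ms4a3 stand highest in ETP among the thymic populations, and Flt3, Meis1 and Jun fall from LMPP to ETP.

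Transcription factors of progenitors were lower in ETP more often than higher: of 29 measured, 7 were called lower and 2 higher (median difference -0.14). Of the 29 differences 20 were below 0 (69%, against 56.5% of all genes). Hlf, a leukemia-associated factor of stem and multipotent cells, fell from 8.55 and 9.34 to 6.59 and 6.49 (difference -2.41, SE 0.24, 5.31-fold, adjusted p = 0.000396). Mecom, a regulator of stem cell maintenance, fell from 6.90 and 7.15 to 5.25 and 5.34 (difference -1.73, 3.31-fold, adjusted p = 8.55e-05), and Meis1, a cofactor of Hox proteins, from 9.12 and 9.41 to 7.78 and 7.94 (difference -1.41, 2.65-fold, adjusted p = 0.00241). Tcf4, the E protein of plasmacytoid dendritic cells, was 2.04-fold lower (adjusted p = 0.00204). In contrast Id2, an inhibitor of E proteins, rose from 5.96 and 5.72 to 7.46 and 7.82 (difference 1.80, 3.49-fold, adjusted p = 0.000497). Cebpa, Lmo2 and Mef2c were lower by 1.09, 1.00 and 0.85 (adjusted p = 0.0119, 0.0279 and 0.0101), and Mycn was higher by 0.72 (adjusted p = 0.0282), but these 4 calls did not survive the loss of single arrays. Cebpa and Lmo2 lost theirs without any of the 4 arrays (adjusted p = 0.0669 to 0.0901 and 0.0718 to 0.151). Mef2c lost its call without LMPP replicate 1, LMPP replicate 2 or ETP replicate 1 (0.0588, 0.0686 and 0.0893), and Mycn without LMPP replicate 1, ETP replicate 1 or ETP replicate 2 (0.188, 0.0886 and 0.202). The number of lower members was 4 without LMPP replicate 1, LMPP replicate 2 or ETP replicate 1 and 5 without ETP replicate 2. Spi1 (PU.1), Bcl11a and Hoxa9, regulators that T commitment later shuts down, differed by -0.03, -0.08 and -0.30 (adjusted p = 0.978, 0.93 and 0.332).

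Genes associated with stem cells gave 1 higher and 3 lower calls of 24 measured (median difference -0.15). Vldlr, a lipoprotein receptor, fell from 6.84 and 7.22 to 5.35 and 5.06 (difference -1.83, 3.55-fold, adjusted p = 0.000216). Angpt1, the ligand of the Tie2 receptor, rose from 10.40 and 10.36 to 11.21 and 11.36 (difference 0.90, 1.87-fold, adjusted p = 0.00381), which is near its HSC levels of 11.12 and 11.16. Eya1 and Fstl1 were lower by 0.84 and 0.68; the call of Eya1 was lost without LMPP replicate 1 or ETP replicate 1 (adjusted p = 0.219 and 0.194) and that of Fstl1 without any of the 4 arrays (0.0756 to 0.17). Emcn, a sialomucin of stem cells and endothelium outside this list, fell from 7.31 and 7.94 to 5.12 and 5.34 (difference -2.39, 5.25-fold, adjusted p = 0.000113). Cd34, a sialomucin of early progenitors, was 10.92 and 11.17 in ETP against 11.08 and 11.24 in LMPP (adjusted p = 0.845). Against HSC, where 5.13% of genes were called, Cd34 was 0.96 higher in ETP (adjusted p = 0.00807).

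Growth factor and cytokine receptors split evenly, with 2 higher and 2 lower of 33 measured. Flt3, the receptor that defines LMPP, fell from 10.48 and 10.75 to 8.55 and 8.66 (difference -2.01, SE 0.14, 4.02-fold, adjusted p = 4.04e-05). The ETP level lay between LMPP and DN2, where Flt3 was 5.23. Csf3r, through which the granulocyte growth factor G-CSF acts, fell from 6.71 and 7.26 to 5.69 and 5.79 (difference -1.24, 2.37-fold, adjusted p = 0.00405). Il10ra rose from 6.37 and 6.26 to 7.64 and 7.43 (difference 1.22, 2.33-fold, adjusted p = 0.000816). Il12rb2, a chain of the interleukin-12 receptor, was 0.97 higher (adjusted p = 0.0416), and lost its call without LMPP replicate 1, ETP replicate 1 or ETP replicate 2 (adjusted p = 0.249, 0.196 and 0.156). Il7r, which thymocytes need for survival and growth, was 7.27 and 7.83 in ETP against 8.33 and 8.23 in LMPP and missed the threshold (difference -0.73, adjusted p = 0.0587). Cd44, the hyaluronan receptor, differed by -0.14 (adjusted p = 0.72).

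No member of the 23 measured homing and chemokine receptors was called. Ccr9 and Ccr7, which guide progenitors to the thymus, differed by -0.20 and 0.11 (adjusted p = 0.753 and 0.819), and Cxcr4, the receptor that retains progenitors in marrow, by -0.19 (adjusted p = 0.658). The largest difference of the list was Ccr2, with 6.55 and 7.26 in ETP against 6.15 and 5.99 in LMPP (difference 0.83, adjusted p = 0.0567). Of 28 integrins and adhesion molecules 2 were higher, beside 1.44% of all genes. Itga9 rose from 6.16 and 6.57 to 7.68 and 7.37 (difference 1.16, 2.23-fold, adjusted p = 0.00336), and Itga4, a partner chain of the receptor for Vcam1, was 0.61 higher (adjusted p = 0.0166). Without any of the 4 arrays Itga4 lost its call (adjusted p = 0.0684 to 0.104).

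**Figure D3:**
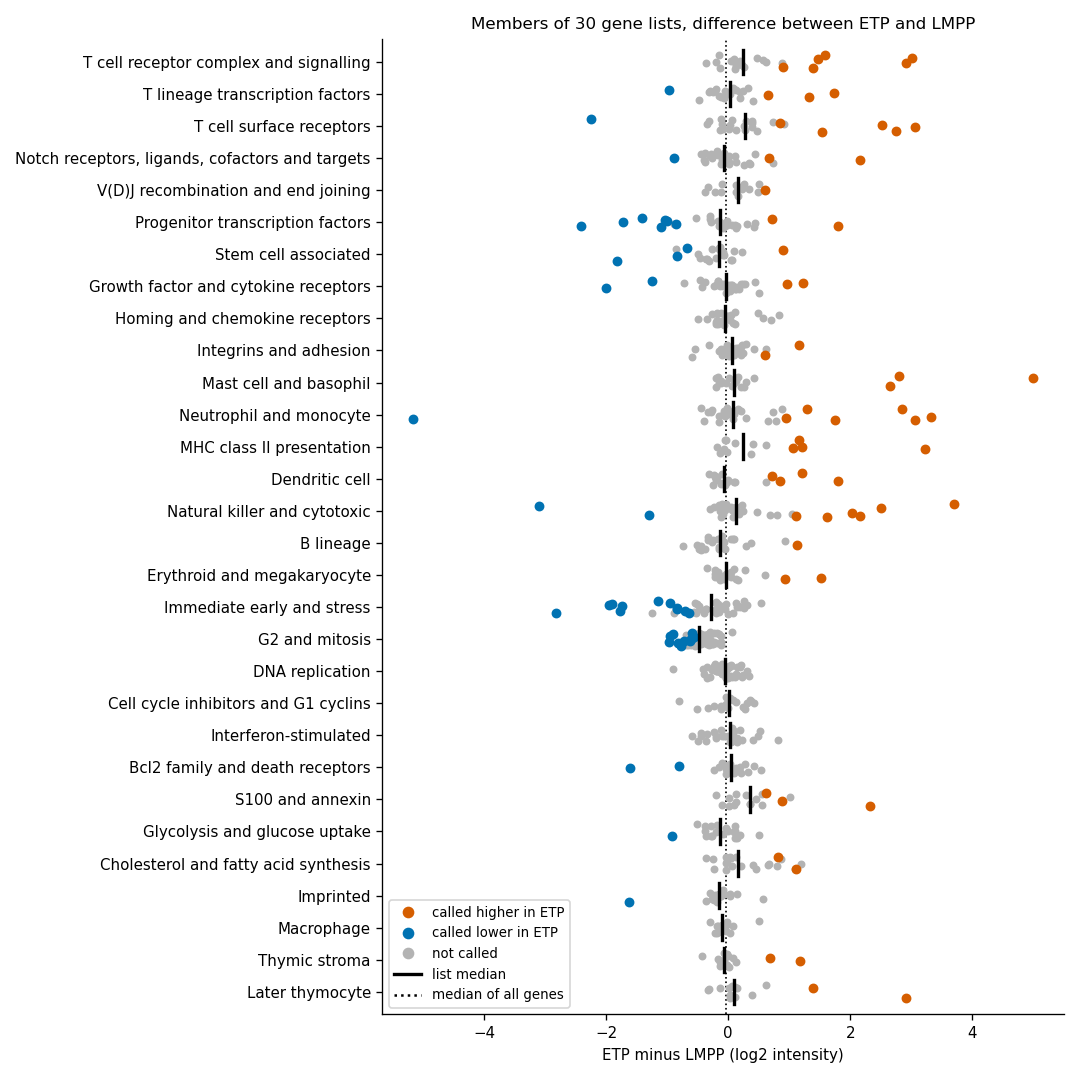
Differences of each measured member of 30 gene lists (log2, ETP minus LMPP, horizontal axis), a row for each list, with called members coloured and a mark at each list's median. The G2 and mitosis and the immediate early lists lie mainly left of 0, with medians of -0.48 and -0.29, and the S100 and annexin list mainly right of 0, with a median of 0.36.

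Genes of mast cells were higher in ETP at a few granule enzymes. Of 19 measured, 3 were called higher: Cpa3, described above, and the chymases Mcpt1 and Mcpt2. Mcpt1 was 5.92 and 7.08 in ETP against 3.56 and 3.84 in LMPP (difference 2.80, 6.98-fold, adjusted p = 0.000557), and Mcpt2 was 5.70 and 6.76 against 3.57 and 3.60 (difference 2.65, 6.26-fold, adjusted p = 0.000383). In the other populations Mcpt1 ran from 3.50 to 3.84 and Mcpt2 from 3.62 to 3.78, so both stood out in the ETP arrays. The 2 are close paralogs, and their probe sets may share signal. The remaining defining markers stayed near the LMPP level: the IgE receptor chain Fcer1a was 4.04 and 3.85 in ETP against 3.86 and 3.70 in LMPP, and the tryptase Tpsab1 was 4.73 and 4.55 against 4.69 and 4.80. The mean level of the list was 5.90 and 6.07 in ETP against 5.43 and 5.37 in LMPP. The part of mast cells in these differences was not tested. Prg3, a granule protein of eosinophils, rose from 5.88 and 5.55 to 7.78 and 7.53 (difference 1.94, 3.83-fold, adjusted p = 6.26e-05), and its neighbour Prg2 was 3.00-fold higher (adjusted p = 0.00888) but lost its call without LMPP replicate 1 or ETP replicate 2 (adjusted p = 0.0721 and 0.0976).

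Of 32 neutrophil and monocyte genes 6 were higher and 1, Wfdc17, was lower. Ms4a3, a membrane protein of granulocyte-monocyte precursors, rose from 4.98 and 4.91 to 8.05 and 8.49 (difference 3.32, SE 0.22, 9.99-fold, adjusted p = 3.2e-05), with 9.34 and 10.13 in HSC and 4.99 in DN2. S100a8, a calcium-binding alarmin of neutrophils, rose from 5.59 and 4.83 to 8.05 and 8.50 (difference 3.06, 8.34-fold, adjusted p = 0.00017). Its partner S100a9 was 8.16 and 8.61 against 6.59 and 6.68 (difference 1.75, 3.35-fold, adjusted p = 0.00647). Clec4e, the lectin Mincle, was 8.68 and 9.45 against 5.74 and 6.69 (difference 2.84, 7.17-fold, adjusted p = 0.00112). Elane, neutrophil elastase, was 2.44-fold higher (adjusted p = 0.00888) and Clec4d 0.94 higher on the log2 scale. S100a9, Elane and Clec4d lost their calls without LMPP replicate 1 (adjusted p = 0.0526, 0.0704 and 0.102) and without ETP replicate 2 (0.075, 0.086 and 0.167), and Elane also without ETP replicate 1 (0.054). The list had 3 higher members in place of 6 when either of those arrays was left out, LMPP replicate 1 or ETP replicate 2. Mpo, the myeloperoxidase of primary granules, was 10.76 and 10.67 in ETP against 10.46 and 10.64 in LMPP (adjusted p = 0.839). The secondary granule genes Ltf and Ngp, which mark maturing neutrophils, stayed between 4.55 and 4.90 in all 4 arrays and were not called. The list's mean level was 6.85 and 7.0 in ETP against 6.63 and 6.60 in LMPP; the part of mature myeloid cells was not tested.

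All 4 calls among the 14 measured genes of MHC class II presentation were higher and held without each array. H2-Aa, the alpha chain of I-A, rose from 6.03 and 6.25 in LMPP to 9.14 and 9.59 in ETP (difference 3.23, SE 0.26, 9.38-fold, adjusted p = 0.000101), and fell back to 6.02 in DN2. The beta chain H2-Ab1 was 8.69 and 8.59 against 7.47 and 7.4 (2.31-fold, adjusted p = 0.00395), and H2-Eb1 was 7.35 and 7.36 against 6.47 and 6.13 (2.08-fold, adjusted p = 0.00241). Cd74, the invariant chain that escorts these molecules, was 6.63 and 6.72 against 5.55 and 5.48 (2.24-fold, adjusted p = 0.00212). For these 4 genes both ETP arrays stood above every array of the other 5 populations. Ciita, the coactivator of class II genes, was not called. Of the 14 differences in this list 8 were above 0 (57.1%, against 43.3% of all genes) and 6 below. Over all genes 1.44% were called higher. Of 20 dendritic cell genes 4 were higher: Id2, Ly6d and the chemokines Ccl17 (2.32-fold, adjusted p = 0.00226) and Ccl22 (difference 0.72). Ccl22 lost its call without LMPP replicate 2 (adjusted p = 0.0863), ETP replicate 1 (0.0754) or ETP replicate 2 (0.0687), and 2 members were called without LMPP replicate 2 or ETP replicate 2. Siglech, a defining marker of plasmacytoid dendritic cells, was 5.55 and 5.53 in ETP against 5.85 in both LMPP arrays, and Zbtb46 and Clec9a, markers of conventional dendritic cells, were not called. The mean level of the dendritic list was 6.31 and 6.37 in ETP against 6.19 and 6.14 in LMPP. Its median difference was -0.08, and 12 of the 20 differences were below 0 (60%, against 56.5% of all genes). The part of dendritic cells was not tested.

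Of 32 NK and cytotoxic genes 6 were higher and 2 lower. Beside Fasl, Nkg7, a protein of cytotoxic granules, rose from 8.20 and 8.61 to 10.27 and 10.59 (difference 2.02, 4.07-fold, adjusted p = 0.00017). Gzma, granzyme A, was 6.52 and 7.66 in ETP against 4.90 and 4.96 in LMPP (difference 2.16, 4.47-fold, adjusted p = 0.00398), with 9.53 in DN2. Serpinb6b, a protease inhibitor, was 5.70-fold higher, and Klrd1, the Cd94 receptor chain, 3.08-fold higher (adjusted p = 0.00604). Klrd1 lost its call without LMPP replicate 2 or ETP replicate 2 (adjusted p = 0.0501 and 0.0704), and Ctsw, cathepsin W, which was 1.11 higher, without LMPP replicate 1 (0.055), ETP replicate 1 (0.096) or ETP replicate 2 (0.181). The 2 lower members were the chemokines Ccl3 and Ccl4. The NK cell markers Klrb1c (NK1.1), Ncr1 (NKp46) and Prf1, perforin, were not called. Klrb1c was 3.60 and 3.32 in ETP against 3.45 and 3.74 in LMPP. Ncr1 was 4.08 and 4.40 against 4.22 and 4.34, and Prf1 was 6.36 and 6.02 against 6.51 and 6.33. The list's mean level was 6.18 and 6.29 in ETP against 5.89 and 5.84 in LMPP.

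Lists of other cell types gave at most 2 calls each, where 1.44% of all genes were called higher. Of 26 B lineage genes 1 was higher, Lax1, an adaptor that dampens antigen receptor signals (2.18-fold, adjusted p = 0.00528, and 0.0515 without LMPP replicate 1); the mean level of the list was 6.39 and 6.43 in ETP and 6.52 and 6.48 in LMPP. Of 19 erythroid and megakaryocyte genes 2 were higher. Tfrc, the transferrin receptor that dividing cells also carry, rose from 9.12 and 9.10 to 10.02 and 10.06 (difference 0.93, 1.90-fold, adjusted p = 0.00105). Car1, a carbonic anhydrase of red cell precursors, was 6.29 and 7.28 against 5.41 and 5.11 (difference 1.52, adjusted p = 0.024), and lost its call without LMPP replicate 1 (0.0735), LMPP replicate 2 (0.136) or ETP replicate 2 (0.144). No macrophage gene of 15 was called, and Adgre1, which defines many tissue macrophages, stayed between 4.17 and 4.55 in the 4 arrays. Of 19 thymic stroma genes 2 were higher, Pdgfrb, a receptor of mesenchymal cells (difference 1.17, 2.25-fold, adjusted p = 0.00143), and the chemokine Ccl25 (difference 0.68, adjusted p = 0.0479, lost without any of the 4 arrays at 0.0533 to 0.323). Foxn1 and Epcam, which mark thymic epithelium, were not higher in ETP: Foxn1 was 5.86 and 6.05 against 6.10 and 5.99, and Epcam 4.99 in both ETP arrays against 5.16 in both LMPP arrays. The mean level of the stroma list was 5.98 and 5.97 in ETP and 5.99 and 5.90 in LMPP.

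Of 46 measured immediate early and stress genes 11 were called lower in ETP and none higher, and 35 were not called. The list's median difference was -0.29, and 37 of its differences were below 0 (80.4%, against 56.5% of all genes). Jun, a subunit of the AP-1 factor, fell from 9.66 and 9.74 to 6.67 and 7.08 (difference -2.82, SE 0.16, 7.08-fold, adjusted p = 1.46e-05). Its level in HSC was 9.88 and 9.72, and in DN2 and DN3 it ran from 6.83 to 7.05, so the marrow populations named here were high and the thymic populations low. Fos, the partner of Jun, fell from 7.35 and 7.44 to 5.58 and 5.30 (difference -1.96, SE 0.23, 3.88-fold, adjusted p = 0.00118). Dusp1, a phosphatase that switches off MAP kinases, fell from 9.13 and 8.61 to 6.72 and 7.21 (difference -1.90, 3.74-fold, adjusted p = 0.00135). Zfp36, which destabilises cytokine mRNAs, was 3.34-fold lower (adjusted p = 0.00129) and the small GTPase Rhob 3.43-fold lower (adjusted p = 4.55e-05). These 5 calls held without each array, while Btg2, Egr1, Ier2, Ier3, Nfkbiz and Nr4a2 each lost theirs without at least 1 array. Btg2, an antiproliferative factor, was 2.22-fold lower (adjusted p = 0.0058, and 0.0535 and 0.0532 without LMPP replicate 2 and ETP replicate 1), and Egr1 was 1.79-fold lower (adjusted p = 0.0138, and 0.105, 0.0625 and 0.119 without LMPP replicate 2, ETP replicate 1 and ETP replicate 2). Without LMPP replicate 1, LMPP replicate 2, ETP replicate 1 and ETP replicate 2 the list gave 8, 8, 7 and 6 lower calls. The mean level of the list was 7.03 and 7.06 in ETP, 7.56 and 7.5 in LMPP and 6.83 to 6.90 in DN2 and DN3.

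Promoter windows of this list were searched for the AP-1 letters TGACTCA and the cyclic AMP response letters TGACGTCA, on both strands; the 2 differ by a single inserted base and cannot overlap in the same letters. TGACTCA stood in 1 of 39 list genes with a window (2.6%) against 5.9% of all genes. TGACGTCA stood in 3 of 39 (7.7%) against 2.0% of all genes, and 2 of the 3 belonged to the called genes Dusp1 and Btg2. Jun and Fos held neither in these windows. The Dusp1 window is chr17:26508423-26508722 and the Btg2 window chr1:134079106-134079405 (GRCm38.p6, both minus strand), shown 5′ to 3′ with the TGACGTCA letters in capitals because these are the called members that hold them.
Dusp1: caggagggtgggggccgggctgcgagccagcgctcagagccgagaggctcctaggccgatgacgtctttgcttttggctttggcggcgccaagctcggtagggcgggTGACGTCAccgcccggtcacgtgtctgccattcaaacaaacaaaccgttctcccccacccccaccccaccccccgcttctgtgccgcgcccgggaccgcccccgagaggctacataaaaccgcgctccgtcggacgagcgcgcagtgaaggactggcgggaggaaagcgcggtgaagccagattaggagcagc
Btg2: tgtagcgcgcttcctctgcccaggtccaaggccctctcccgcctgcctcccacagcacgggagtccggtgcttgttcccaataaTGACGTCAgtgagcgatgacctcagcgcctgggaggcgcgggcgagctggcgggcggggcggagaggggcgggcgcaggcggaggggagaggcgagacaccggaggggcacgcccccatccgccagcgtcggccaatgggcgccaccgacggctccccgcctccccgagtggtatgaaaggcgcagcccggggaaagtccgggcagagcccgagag

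Of 59 measured genes of G2 and mitosis 11 were called lower in ETP, none higher, and 48 were not called. The median difference of the list was -0.48 against -0.03 over all genes, and 58 of the 59 differences were below 0 (98.3%, against 56.5% of all genes). Cenpf, a kinetochore protein, fell from 10.20 and 10.31 to 9.07 and 9.49 (difference -0.98, SE 0.14, 1.97-fold, adjusted p = 0.00463) and was the member called without each array. Aspm, a spindle pole protein, was 1.94-fold lower (adjusted p = 0.00934), Mki67, the Ki-67 proliferation antigen, 1.70-fold lower at 9.75 and 9.94 against 10.51 and 10.71 (adjusted p = 0.0181), and Ccnb2, a cyclin of mitosis, 1.55-fold lower (adjusted p = 0.0287). The count of called members depended on the fit: it was 28 after quantile normalization was applied once more, 3 after each array was centred on its median, and 0 in a fit of the 4 arrays alone. It was also 5, 1, 1 and 5 without LMPP replicate 1, LMPP replicate 2, ETP replicate 1 and ETP replicate 2. Without LMPP replicate 2 and without ETP replicate 1 the adjusted p was 0.0801 and 0.085 for Aspm, 0.118 and 0.13 for Mki67 and 0.154 and 0.174 for Ccnb2. The mean level of the list was 8.57 and 8.72 in ETP and 9.03 and 9.21 in LMPP, while HSC, CLP, DN2 and DN3 ran from 8.61 to 8.94. None of 47 DNA replication genes was called, beside 2.31% of all genes. Their median difference was -0.05, and 29 of the 47 were below 0 (61.7%, against 56.5% of all genes). After quantile normalization was applied once more their median was -0.14, and that of the G2 and mitosis list was -0.55. None of 18 cyclin-dependent kinase inhibitors and G1 cyclins was called.

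Promoters of mitotic genes often carry the CHR letters TTTGAA and the CCAAT box, the first read by the DREAM and MuvB complexes and the second by NF-Y. On either strand TTTGAA stood in the windows of 39 of 50 list genes (78.0%) against 20.2% of all genes, CCAAT in 38 of 50 (76.0%) against 41.1%, and both in 32 of 50 (64.0%) against 8.0%. The ends of the 2 motifs can share 1 letter. All 9 called members with a window held TTTGAA and 8 of them CCAAT. The windows of Cenpf (chr1:189688037-189688336, minus strand), Aspm (chr1:139454523-139454822, plus strand) and Ccnb2 (chr9:70421505-70421804, minus strand) are shown 5′ to 3′ (GRCm38.p6) for 3 called members with several of these letters each. Capitals mark TTTGAA, and CCAAT or its reverse complement ATTGG.
Cenpf: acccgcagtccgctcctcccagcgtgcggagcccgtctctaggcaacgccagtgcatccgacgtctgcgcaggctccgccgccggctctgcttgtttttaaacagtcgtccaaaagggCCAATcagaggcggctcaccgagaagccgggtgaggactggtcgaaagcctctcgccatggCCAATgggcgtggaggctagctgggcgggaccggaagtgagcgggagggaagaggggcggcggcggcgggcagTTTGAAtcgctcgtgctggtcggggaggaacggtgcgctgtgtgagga
Aspm: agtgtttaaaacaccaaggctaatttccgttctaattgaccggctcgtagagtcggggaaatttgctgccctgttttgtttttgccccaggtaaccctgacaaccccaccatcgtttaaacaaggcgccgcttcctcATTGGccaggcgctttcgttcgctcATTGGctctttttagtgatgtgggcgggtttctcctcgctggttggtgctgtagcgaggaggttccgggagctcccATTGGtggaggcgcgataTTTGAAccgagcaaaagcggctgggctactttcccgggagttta
Ccnb2: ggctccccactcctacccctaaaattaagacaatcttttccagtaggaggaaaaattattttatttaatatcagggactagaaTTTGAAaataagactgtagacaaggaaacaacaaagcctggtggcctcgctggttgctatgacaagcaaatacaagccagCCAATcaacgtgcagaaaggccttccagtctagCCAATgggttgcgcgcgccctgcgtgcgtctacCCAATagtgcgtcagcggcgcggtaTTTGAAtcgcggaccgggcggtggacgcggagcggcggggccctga

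In Cenpf, TTTGAA began 2 bases and in Aspm 6 bases after the annotated start, and in Ccnb2 a copy began 4 bases after it. These matches describe letters and not binding.

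**Figure D4:**
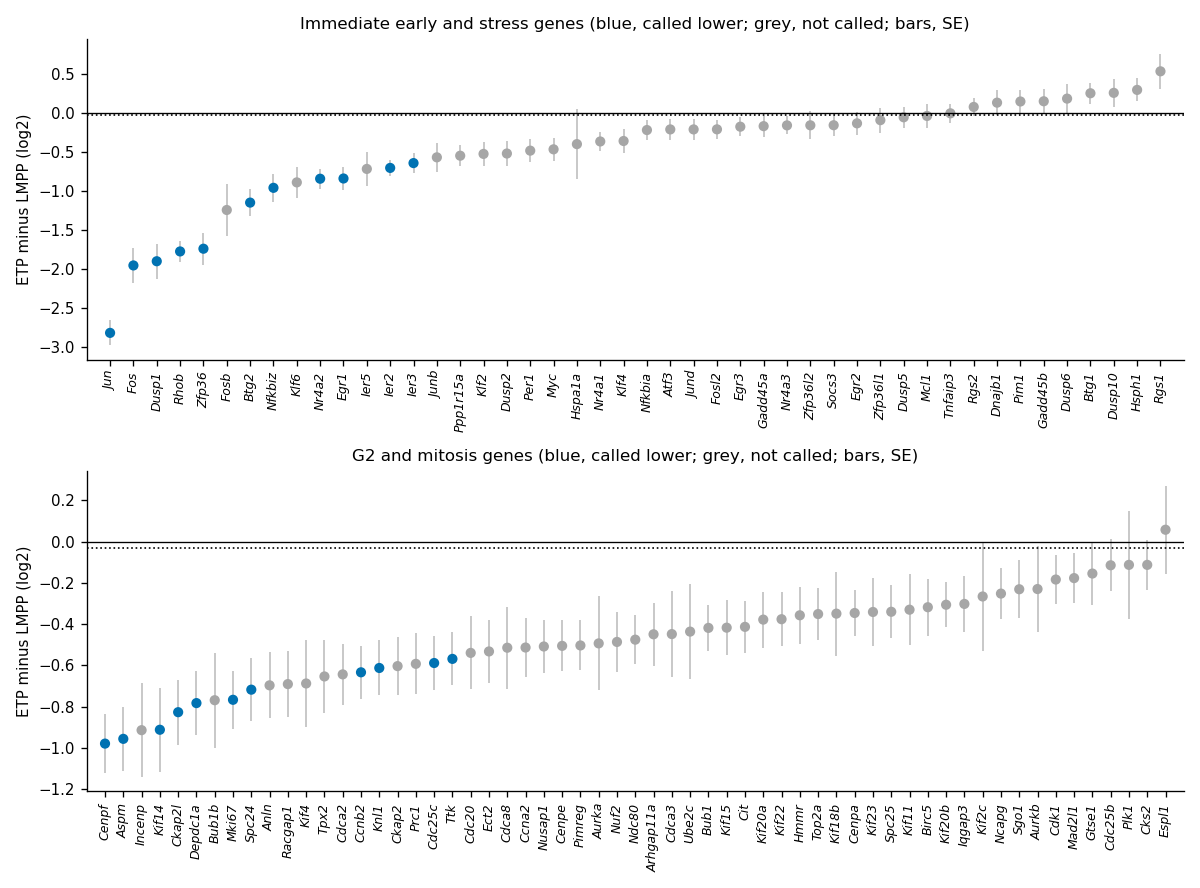
Differences (log2, ETP minus LMPP) with their standard errors for the measured immediate early and stress genes and for the measured G2 and mitosis genes, each sorted by size. The early genes run from Jun at -2.82 through a long tail near 0, with 37 of 46 below 0, and the mitotic genes form a narrow band in which 58 of 59 lie below 0.

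Among the 23 genes of the Bcl2 family and death receptors 2 were lower and none higher. Bcl2, the survival factor, fell from 9.15 and 9.25 to 7.43 and 7.75 (difference -1.61, SE 0.19, 3.05-fold, adjusted p = 0.00118). ETP stood below the other populations: Bcl2 ran from 8.66 to 9.43 in HSC, CLP, DN2 and DN3. Casp4, an inflammatory caspase, was 0.81 lower (adjusted p = 0.013) and lost its call without LMPP replicate 1, LMPP replicate 2 or ETP replicate 1 (adjusted p = 0.0696, 0.0801 and 0.0934). None of 27 interferon-stimulated genes was called, with a median difference of 0.03.

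Of 17 S100 and annexin genes 15 had differences above 0 (88.2%, against 43.3% of all genes) and 3 were called higher. S100a8 and S100a9, given above with the neutrophil genes and also called higher, are not counted in this list. S100a4, a calcium-binding protein of motile cells, rose from 8.25 and 8.55 to 10.60 and 10.87 (difference 2.33, 5.03-fold, adjusted p = 0.000645). S100a5 was 0.88 and S100a10 was 0.62 higher; S100a5 lost its call without LMPP replicate 2, ETP replicate 1 or ETP replicate 2 (adjusted p = 0.0643, 0.0524 and 0.0607), and S100a10 without any of the 4 arrays (0.089 to 0.165). Of 22 genes of cholesterol and fatty acid synthesis 2 were higher, both enzymes late in sterol synthesis. Sc5d rose 2.17-fold (adjusted p = 0.00581, and 0.0666 without ETP replicate 2), and Cyp51 by 0.81, with its call lost without any of the 4 arrays (adjusted p = 0.0872 to 0.251). Of 20 glycolysis genes 1 was lower, Pfkp, a phosphofructokinase, which fell from 6.86 in both LMPP arrays to 6.08 and 5.78 (1.90-fold, adjusted p = 0.00647, and 0.0669 without ETP replicate 2). Of 18 imprinted genes 1 was lower, Sgce, a sarcoglycan (3.07-fold, adjusted p = 0.0056, and 0.0517 and 0.0596 without LMPP replicate 2 and ETP replicate 1).

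Several called genes lay next to each other in the genome, a pattern looked for after the values were seen. Among 19855 genes with a RefSeq position, 23 runs of 2 or more adjacent measured genes were called in the same direction. Of these runs 17 were higher and 6 lower, with 52 of the 460 called genes in all. How many runs would arise from calls scattered over the genome was not computed. Some runs hold close paralogs, such as Mcpt1 with Mcpt2, whose probe sets may share signal. A lower run on chromosome 11 held the chemokines Ccl3 and Ccl4 with Wfdc17 and Wfdc18. Ccl3, which attracts inflammatory cells, fell from 9.35 and 9.49 to 6.49 and 6.14 (difference -3.11, SE 0.42, 8.61-fold, adjusted p = 0.00305). Ccl4, a related chemokine, was 2.45-fold lower (adjusted p = 0.00128) and Wfdc18 was 4.54-fold lower (adjusted p = 0.000948). Ccl9, a few genes before them, was 1.65 lower (adjusted p = 0.00691) and lost its call without LMPP replicate 1 or ETP replicate 1 (adjusted p = 0.065 and 0.0718).

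A higher run of 5 genes on chromosome 7 lay in an olfactory receptor region. It held Ubqlnl, Olfm5, Olfr648, Olfr649 and Trim6, with differences of 1.40, 2.58, 3.23, 3.69 and 0.75. Olfm5, an olfactomedin family protein, rose from 6.05 and 6.27 to 8.80 and 8.68 (5.99-fold, adjusted p = 3.12e-05). Olfr649 rose from 4.93 and 4.74 to 8.94 and 8.12 (12.9-fold, adjusted p = 3.2e-05), and Olfr648 from 4.43 and 4.27 to 7.71 and 7.44 (9.37-fold, adjusted p = 1.56e-05). All 3 were at a similar level in DN2 (9.51, 8.49 and 7.56) and back near the LMPP level in DN3. Ubqlnl lost its call without LMPP replicate 2 (adjusted p = 0.0762), and Trim6 without LMPP replicate 1, LMPP replicate 2 or ETP replicate 1 (0.0502, 0.134 and 0.144). Olfr648 and Olfr649 belong to a multigene family whose probe sets may share signal. S100a8 with S100a9, the class II genes H2-Aa, H2-Ab1 and H2-Eb1, and Cd3g with Cd3d formed other runs.

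**Figure D5:**
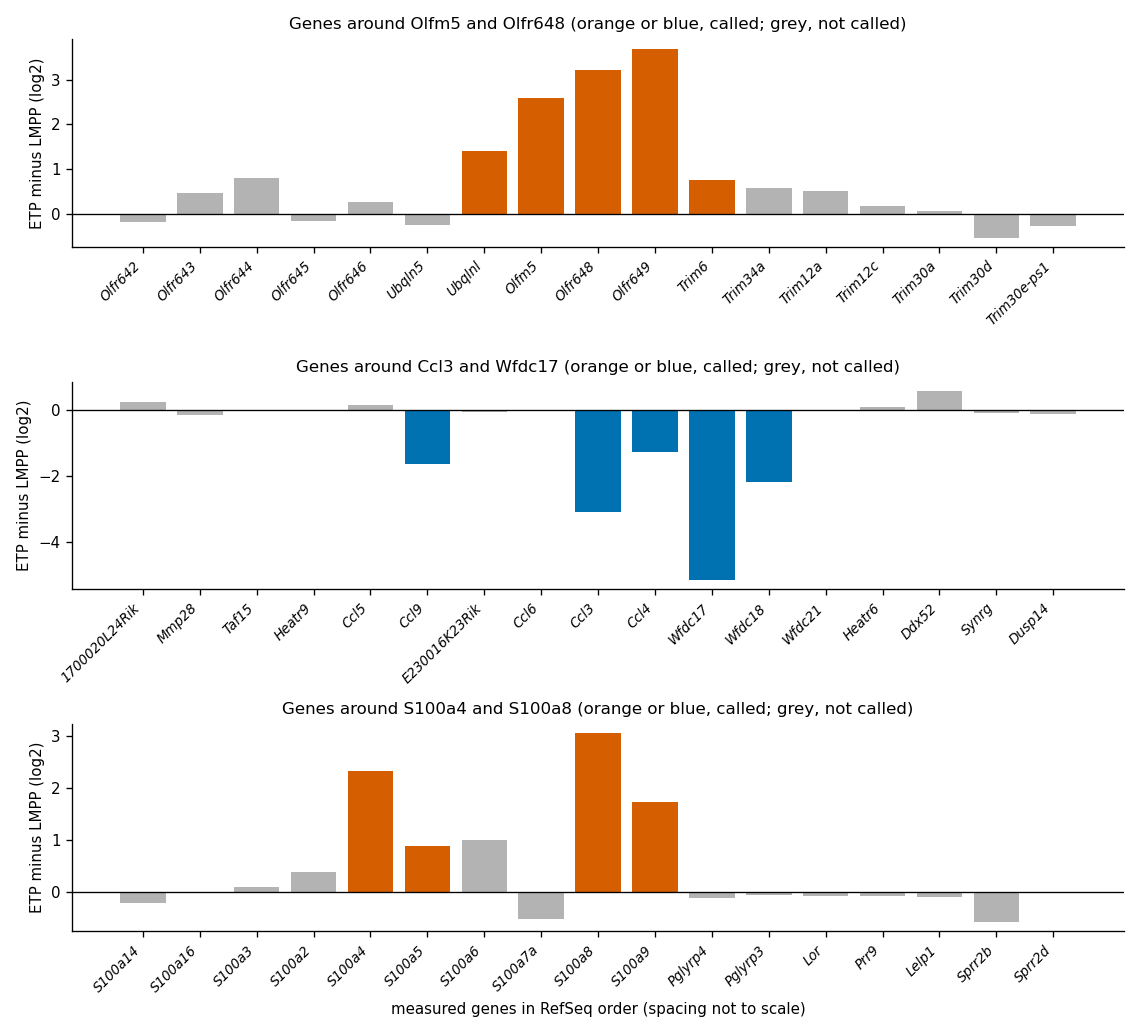
Differences (log2, ETP minus LMPP, vertical axis) of measured genes in their RefSeq order along 3 gene clusters, with called genes coloured and the horizontal axis giving the order of genes, not distance. The cluster around Olfm5 rises to 3.69 at Olfr649, the chemokine cluster falls to -5.16 at Wfdc17, and the S100 cluster shows S100a4 at 2.33 and S100a8 at 3.06 with S100a6, which was not called, between them.

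MicroRNA genes were measured through probe sets for their precursors or host transcripts, which do not report the mature microRNA. Of 297 microRNA genes 4 were called higher and 2 lower (2.02%, near the 2.31% of all genes). The mature sequences of the 4 with the largest differences are shown 5′ to 3′ (RefSeq, GRCm38.p6) with the seed, bases 2 to 8, in capitals, since the seed decides which targets a microRNA pairs with. The positions are chr14:115043684-115043706 for miR-17-5p and chr14:115043867-115043889 for miR-18a-5p, both plus strand, chr1:137966650-137966673 (plus strand) for miR-181b-5p and chrX:52741697-52741718 (minus strand) for miR-363-3p.
mmu-miR-17-5p: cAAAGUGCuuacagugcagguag
mmu-miR-18a-5p: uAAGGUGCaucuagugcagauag
mmu-miR-181b-5p: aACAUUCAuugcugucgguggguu
mmu-miR-363-3p: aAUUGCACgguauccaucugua

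The 4 seeds differ from each other. The host transcript Mir17hg, from which miR-17 and miR-18a are cut, rose from 5.39 and 5.84 in LMPP to 7.92 and 7.66 in ETP (difference 2.17, SE 0.19, 4.51-fold, adjusted p = 0.000167), and the call held without each array. The precursor probe sets inside it went the other way: Mir17 fell from 6.71 and 6.48 to 5.23 and 5.12 (difference -1.42, 2.68-fold, adjusted p = 0.0293), and Mir18 from 6.87 and 7.80 to 4.80 and 5.22 (difference -2.33). Mir181b-1, of a family that tunes T cell receptor sensitivity, was 6.57 and 5.83 in ETP against 4.78 and 3.95 in LMPP (difference 1.84), and Mir363 was 4.95 and 3.85 against 3.06 and 2.89 (difference 1.43), with 6.69 in DN2. Of these, Mir17 lost its call without any of the 4 arrays. Mir18 lost its call without LMPP replicate 2, ETP replicate 1 or ETP replicate 2 (adjusted p = 0.119, 0.125 and 0.0748), Mir181b-1 without LMPP replicate 2 or ETP replicate 1 (0.0643 and 0.0776) and Mir363 without LMPP replicate 1 or LMPP replicate 2 (0.089 and 0.12).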

How the data were processed

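Total RNA was extracted with Trizol and labelled with biotin by an Affymetrix whole-transcript kit, per the labels' protocols. The deposited values are log2 intensities from RMA (background correction, quantile normalization and summary by probe set), per the submitters' processing notes; no label names the chip definition or genome build. Some descriptions of thymic samples name bone marrow while the tissue label and the design name thymus, and the tissue label was followed. Of 35556 probe sets 21789 had 1 gene symbol, 1621 several and 12146 none; 999 genes had over 1 probe set, of which the one with the highest mean over all arrays was kept, leaving 19938 genes. Arrays carry no read depth, so precision rests on how many arrays there are.

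Levels were fitted with limma 3.58.1 (lmFit and eBayes, R 4.3.3) as 6 group means over 11 arrays (5 residual degrees of freedom), and the ETP minus LMPP contrast was tested two-sided with Benjamini-Hochberg adjustment over all genes, called at adjusted p under 0.05. The script was tested on simulated data. Same-numbered replicates are not stated to be paired. The comparison, the 30 gene lists and the named genes were chosen with earlier results of these data known. Named genes are the 15 largest differences in each direction among called genes without predicted, antigen receptor, histone, small RNA and olfactory genes, up to 5 called members a list and direction (or the largest difference where none was called), and a panel of landmark genes; microRNA, small nucleolar RNA, neighbouring and olfactory genes, and genes given beside a list as reference, were chosen after their values were seen. Lists are described by counts and medians with no set test. Sequences and positions come from RefSeq (GRCm38.p6). Alternatives were other samples in the fit, filters on dim genes, scaling, probe set summary, prior, array weights, the replicate block, thresholds and leaving out each array.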

Additional observations from a re-analysis of the deposited data

How the results depend on the processing

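The comparison called 460 genes. A fit of the 4 ETP and LMPP arrays alone called 195, adjusted p under 0.01 called 213, and a 2-fold minimum beside adjusted p under 0.05 called 206. Leaving out 1 array called between 228 and 284 genes; these fits have fewer samples. The fit with the replicate number as a block (replicate block) called 442. Deviations of same-numbered ETP and LMPP arrays correlated at r = 0.12 over genes, and no label pairs them. The other settings called 412 (genes with a mean of at least 6) to 578 (array weights). Of the 1478 values of 115 named genes under the alternatives, 1326 stayed on the same side of the threshold. Another 143 kept the direction and missed the threshold (95 of them with an array left out), and 9 newly passed it. None (0) turned its sign where the gene was called in the main or the other fit. Changes of sign in genes called in neither fit were not counted apart from the 1326. With 2 arrays a group, no difference under about 0.48 was called, which is an observed minimum and not a computed limit. Signal near background makes folds of dim genes uncertain.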

Other observations

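Small nucleolar RNAs, which guide the modification of ribosomal RNA, were looked at after their values were seen. Of 53 measured, 9 were called higher in ETP and 1 lower (18.9% called, against 2.31% of all genes). Of the 53, 42 had differences above 0, while 43.3% of all genes did, and the median was 0.42. Only the calls of Snord87, Snord35b and Snora73b held without each of the 4 arrays. Snora33, Snora44, Snora73a, Snord42b, Snord52, Snord96a and Snora31 each lost theirs without at least 1 array. Snord87 rose from 8.14 in both LMPP arrays to 9.54 and 9.45 in ETP (difference 1.36, SE 0.15, 2.56-fold, adjusted p = 0.0007 by limma), and its call held without each of the 4 arrays. Snord35b rose from 5.61 and 5.24 to 6.66 and 7.28 (difference 1.55, 2.92-fold, adjusted p = 0.00386) and also held without each array. For both, the LMPP arrays lay below every array of the other 5 populations. Snord52 was 7.79 and 7.60 in ETP against 6.36 and 5.63 in LMPP (difference 1.70, adjusted p = 0.0334), and its call was lost without LMPP replicate 2, ETP replicate 1 or ETP replicate 2 (adjusted p = 0.178, 0.169 and 0.152). Snora31 was the lower member, at 9.20 and 9.15 against 10.01 and 9.97 (difference -0.81, adjusted p = 0.0328), and lost its call without any of the 4 arrays (adjusted p = 0.12 to 0.196). Such short transcripts are covered by few probes and depend on the RNA extraction; whether extraction differed between the arrays was not tested.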
